A study of Mus musculus with 237 samples.

Results

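Krt5, Krt14 and Krt15 encode the keratins that fill the basal layer of stratified epidermis, and they are described here in single-cell RNA-seq of mouse embryonic skin. The 3 genes were taken by symbol and Ensembl identifier from a table of 55335 genes, and all 3 were present in it. KRT5 is a type II keratin, and KRT14 and KRT15 are type I keratins. A keratin filament is built from pairs of a type I and a type II chain, so a cell needs members of both types. KRT5 with KRT14 is the classical pair of proliferating basal keratinocytes, where the filaments are anchored to the basement membrane through hemidesmosomes. KRT15 is a second basal type I keratin. Simple epithelia and the early surface ectoderm use the type II keratin KRT8 with the type I keratin KRT18. Keratinocytes that leave the basal layer turn on KRT1 with KRT10.

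The table held libraries of 1 cell each, from the skin of C57BL/6N embryos at E14.5 carried by surrogate ICR mothers. The labels describe 66 wild-type cells from 3 embryos and 171 cells from 7 Trp63 mutant embryos, in which the gene for the epithelial transcription factor p63 is knocked out. Live cells negative for CD45, TER119 and CD140a were sorted, which removes blood cells and many fibroblasts, and full-length cDNA was made with SMART-Seq HT. Wild-type epidermis was first separated from dermis with dispase, whereas the mutant fetuses went straight into trypsin. According to the study's methods, a qPCR before sequencing also checked that Pdgfra, the gene for CD140a, did not amplify significantly. The same qPCR was used to choose cDNA, for Krt5 in wild-type cells and for Krt8 in mutant cells. How often Krt5 or Krt8 occurs in the table is therefore partly set by that choice, and genotype, dissociation and screen cannot be told apart in it.

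Of all libraries, 16 could be tied to a cell in the labels, and the genotype and cell class of the others were not used here. All 16 came from the wild-type embryo WT01, with 11 cells of the basal class WT-KCB, 4 of the Krt17-high class WT-KCP, which the study annotates as periderm, and 1 of the intermediate-layer class WT-KCI. The study assigned the classes by hand from marker genes in the same data. Differences in marker keratins between classes are therefore partly set by that assignment. The remaining comparisons are counts of libraries and have no replicates, so they carry no test. Totals ran from 2702464 to 19197937 counts, with a median of 6938984, and no library repeated another. Levels are given as CPM, the count scaled to a fixed library total, and a gene was called present at 100 CPM or more. CPM is not divided by gene length, so CPM values of different genes stand side by side without being ranked, and genes are ranked against each other only per kb of exon.

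The genes lie in the 2 keratin clusters, all on the minus strand of GRCm38. Krt5 (ENSMUSG00000061527) occupies chr15:101707070-101712898, Krt14 (ENSMUSG00000045545) chr11:100203162-100207548 and Krt15 (ENSMUSG00000054146) chr11:100131758-100135928. Their coding sequences resemble those of neighbouring keratins, which matters for which reads can be assigned to them. Over the full length of the coding alignments, gaps included, Krt14 was 82.7% identical to Krt16, 74.8% to Krt17 and 67.4% to Krt15. By the same measure Krt5 was 75.5% identical to Krt6a. The longest runs of identical bases of Krt14 with Krt16 and with Krt15 are printed here, 5′ to 3′ from the GENCODE transcripts, because a read that falls inside such a run fits both genes. In the first, coding bases 306 to 439 of Krt14 in exon 1 (chr11:100207017-100207150), capitals mark the 25 bases that are also found in Krt15. The other is the longest run shared by the members Krt14 and Krt15 themselves, coding bases 686 to 713 of Krt14 in exon 3 (chr11:100205018-100205045), with no capitals.
Krt14 shared with Krt16: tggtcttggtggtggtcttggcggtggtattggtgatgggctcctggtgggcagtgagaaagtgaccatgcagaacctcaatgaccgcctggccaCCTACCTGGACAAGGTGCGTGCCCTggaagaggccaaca
Krt14 shared with Krt15: gggtgctggatgagctgaccctggccag

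These runs are 134 and 28 bases long. No window of 150 bases, the read length, in the messages of Krt5, Krt14 or Krt15 occurred in a transcript of another gene. Of windows of 100 bases, 3.81% of those in Krt5 and 2.88% of those in Krt14 did, and none in Krt15. Fractional counts, which arise when a read is divided between genes or places, made up 47% of the values above 0 of Krt5, 43.9% of those of Krt14 and 21.9% of those of Krt15. Krt14 and Krt16 values can share reads, but the Krt16 value was at most 7.31% of the Krt14 value in the 58 libraries with Krt14 at 1000 CPM or more, with a median of 0.347%.

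The libraries fell into 2 sets, which shows at Krt5. How each set was counted is not given, and the cause of the difference was not tested. Gm44323, annotated as a miRNA on the opposite strand, shares exon bases with Krt5. Among the 61 libraries with Krt5 at 1000 CPM or more, Gm44323 stood at 8.39% to 9.68% of the Krt5 value in 43 and at 0 in the other 18, with nothing in between. The same split separated the whole table by the share of values above 0 that carry a fraction, 11.1% to 19.9% in 82 libraries and 22.5% to 33.7% in 155. The line at 21% was drawn after the values were seen. All 16 paired cells were among the 155. Krt8 was present in 61 of the 82 and in 31 of the 155, so this split and cell content cannot be told apart. Values within each set are given below.

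Each basal keratin was either abundant or close to absent in most libraries. Krt5 was present in 80 libraries (33.8%), where its median was 2845 CPM, and its highest value was 7155 CPM. Krt14 was present in fewer, 62 (26.2%), at a median of 5205 CPM there. Krt15 was present in the most, 106 (44.7%), at a median of 2116 CPM there. No count was found in 88 libraries for Krt5, in 89 for Krt14 and in 54 for Krt15, which allows up to 3 counts per library and covers counting error only. Few libraries lay near the line, with 14 for Krt5, 7 for Krt14 and 15 for Krt15 between 50 and 200 CPM. The highest Krt15 was 52650 CPM, in a library that also had the highest Krt14, 25107 CPM, beside 1155 CPM of Krt5. The next highest Krt15, 27464 CPM, stood beside 2695 CPM of Krt5 and 1.31 CPM of Krt14.

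Jointly, the 3 genes fell into a few combinations. All 3 were present in 55 libraries (23.2%, exact 95% interval 18% to 29.1%), and none in 117 (49.4%, 42.8% to 55.9%). Krt15 was present alone in 38 (16%, 11.6% to 21.3%). Krt5 and Krt15 without Krt14 were found in 12 libraries, Krt5 alone in 8, and Krt5 and Krt14 without Krt15 in 5. Krt14 was present without Krt5 in only 2 libraries, alone in 1 and with Krt15 in 1. Thus 60 of 62 libraries with Krt14 also had Krt5, while 20 of 80 libraries with Krt5 lacked Krt14. The intervals are binomial and cover counting error only, and the screened libraries are not a random sample of skin cells. For scale, the labels name 45 WT-KCB, 8 WT-KCI and 8 WT-KCP cells. Among mutant cells they name 70 fibroblasts, all from 1 mutant embryo, and 28 cells with high K5 and K14 (p63 KO-SKH). A further 50 are of the surface ectoderm remnant (p63 KO-SER), the epidermis that stays undifferentiated in the mutant. The rest carry other labels, such as unknown cell or omit. Which libraries these are was not used here beyond the 16.

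**Figure D1:**
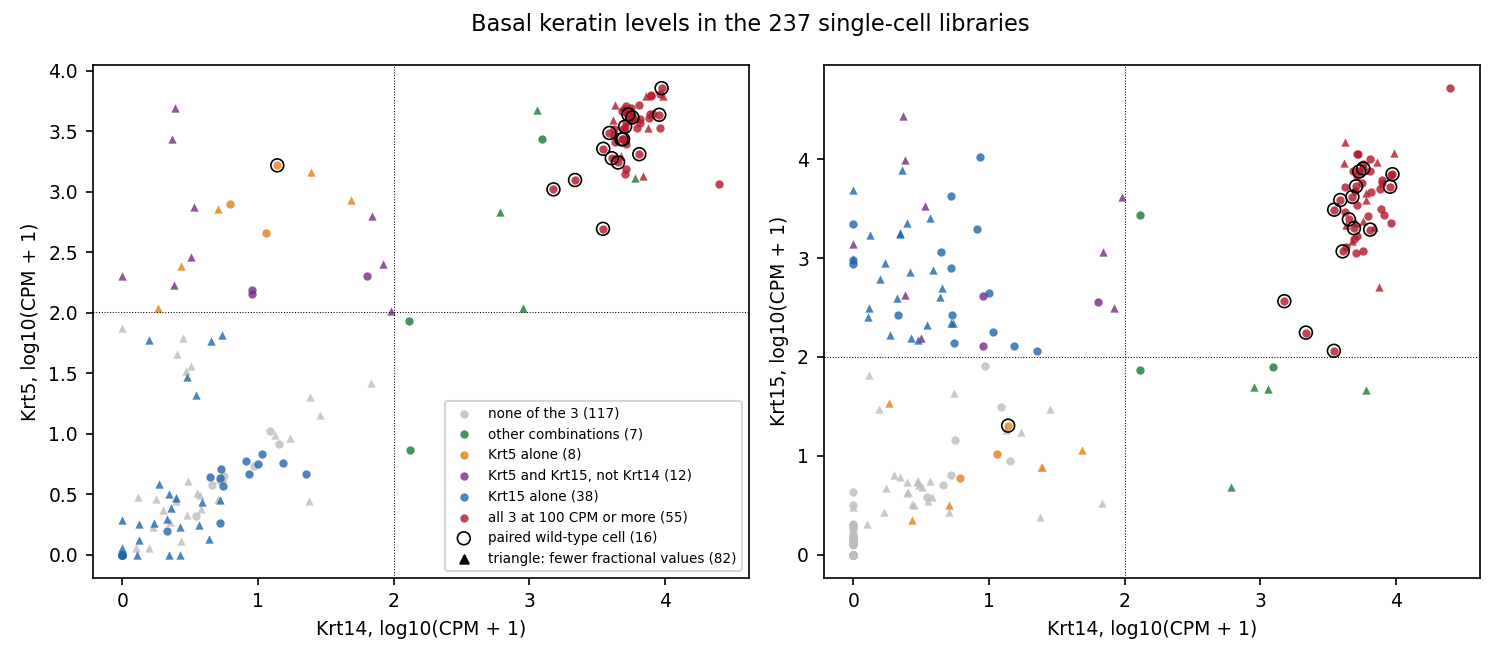
Levels of Krt5 (left) and Krt15 (right) against Krt14, each as log10(CPM + 1), in every library, with dotted lines at 100 CPM, colours for the combination present, triangles for the 82 libraries with fewer fractional values and black rings for the 16 paired cells. The 55 libraries with all 3 genes gather at the upper right, and the 38 with Krt15 alone stand at the upper left of the right panel.

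In the 55 libraries with all 3, Krt5 ran from 491 to 7155 CPM with a median of 3743, Krt14 from 1507 to 25107 with a median of 5381, and Krt15 from 114 to 52650 with a median of 4177. Other basal markers were present to different extents. Trp63, the gene for p63, was present in 54, Col17a1, which encodes a hemidesmosomal collagen, in 50, and Itga6, an integrin chain of the same structure, in 21. The summed level of Krt5, Krt14, Trp63, Col17a1 and Itga6, of which the first 2 also chose these libraries, ran from 3521 to 26268 CPM. Those of the suprabasal, Krt17-high or periderm, and simple epithelial lists ran from 1.73 to 7301, from 138 to 7286 and from 41.8 to 2924 CPM. The fibroblast list ran from 5.51 to 2948 CPM, and 4 of its 6 genes did not reach 100 CPM in any of the 55. Its level came from Dcn, present in 52 of 55 at a median of 498 CPM over the 55, with Col1a2 present in 1 and Lum and Pdgfra in 0. The endothelial, melanocyte, neural, muscle and Merkel lists reached at most 50.9, 139, 1.46, 36.9 and 489 CPM, and the immune list had no count. Cells with CD140a, encoded by Pdgfra, or CD45, encoded by Ptprc of the immune list, had been sorted out. The absence of these genes was therefore partly set before sequencing.

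The libraries with Krt15 alone had a different partner keratin. Krt8 was present in 38 of 38, from 319 to 6289 CPM with a median of 1953, and Krt18 in 36. Krt15 ran from 115 to 10597 CPM with a median of 668, and it reached 1000 CPM in 12 libraries. Krt5 was under 10 CPM in 33 of the 38 and Krt14 in 36. Trp63 was present in 20, Epcam, an epithelial surface protein gene, in 37, and Cdh1, the gene for E-cadherin, in 36. Col17a1 was present in none and had a highest value of 1.53 CPM, while Krt1 was present in none. Col3a1, a fibroblast collagen gene, was present in 20 of them, at a highest value of 2227 CPM. Its part in the Krt15 values was not tested. Krt8 was present beside Krt15 alone in 23 of 23 libraries with fewer fractional values and in 15 of 15 of the others. Over all libraries Krt8 was present in 92 (38.8%). Krt5 and Krt8 were the screening targets, so libraries without Krt5 may have been kept for Krt8, and the part of the screen was not tested.

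Not every library with Krt8 had Krt15. In 32 libraries Krt8 was present with none of the 3, and in these Krt15 ran from 1.04 to 80.0 CPM with a median of 4.07, at or above 1 CPM in each of them. The highest Krt5 and Krt14 there were 73.0 and 67.1 CPM. The other 85 libraries without a basal keratin also lacked Krt8 and Krt1, and Col3a1 was present in 82 and Col1a1 in 78 of them. Neither screening target, Krt5 or Krt8, was thus present in these libraries, so the screen as described does not account for them. Krt15 had no count in 54 of these 85 and reached at most 42.4 CPM.

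The 20 libraries with Krt5 and without Krt14 all had a keratin of another program. Krt8 was present in 14 and Krt1 in the other 6. The 12 libraries with Krt5 and Krt15 but no Krt14 all had Krt8, from 627 to 6977 CPM, and in them Krt5 had a median of 224 CPM, Krt14 of 5.19 CPM and Krt15 of 790 CPM. Of the 8 with Krt5 alone, 6 had Krt1 and Krt10 and 2 had Krt8. By contrast, 48 of the 55 libraries with all 3 had neither Krt8 nor Krt1. Of the other 7, 3 had Krt8, 3 had Krt1 and 1 had both. The division between Krt8 and Krt1 held in both sets of libraries. In the set with fewer fractions, 11 of 14 Krt5 libraries without Krt14 showed Krt8 and 3 showed Krt1. In the other set, 3 and 3 of 6 did.

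Read from the side of Krt8, the members differed in how often they were found with it. Among the 92 libraries with Krt8, Krt15 was present in 55, Krt5 in 20 and Krt14 in 8. Among the 71 with Krt8 at 1000 CPM or more, the counts were 45, 14 and 3, and the highest values there were 10597 CPM of Krt15, 4891 of Krt5 and 896 of Krt14. Among the 91 with Krt8 under 1 CPM, Krt5 was present in 17, Krt14 in 16 and Krt15 in 16, and 74 had none. At 1 to 10 CPM of Krt8, 37 of 47 libraries had Krt5 and 32 had Krt14. Since Krt5 and Krt8 were the 2 screening targets, the part of the screen in this pattern was not tested.

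Krt1 told the members apart in another way. All 12 libraries with Krt1 also had Krt5, whereas 6 of the 12 had Krt14 and 4 had Krt15. In the 8 libraries with Krt1 at 1000 CPM or more, Krt5 ran from 456 to 4761 CPM with a median of 1152. Krt14 there ran from 4.04 to 5756 CPM with a median of 18.3, and Krt15 from 2.15 to 2378 CPM with a median of 9.90. Krt14 was present in 2 of these 8 and Krt15 in 1, so Krt5 was the member most often present beside Krt1. However, wild-type cDNA was chosen for Krt5 and not for Krt14 or Krt15. Wild-type cells with Krt1 and without Krt5 may therefore not have been sequenced, and the part of the screen was not tested. Each of the 2 sets, with fewer and with more fractional values, held 6 of the libraries with Krt1, and Krt5 was present in every one of them.

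**Figure D2:**
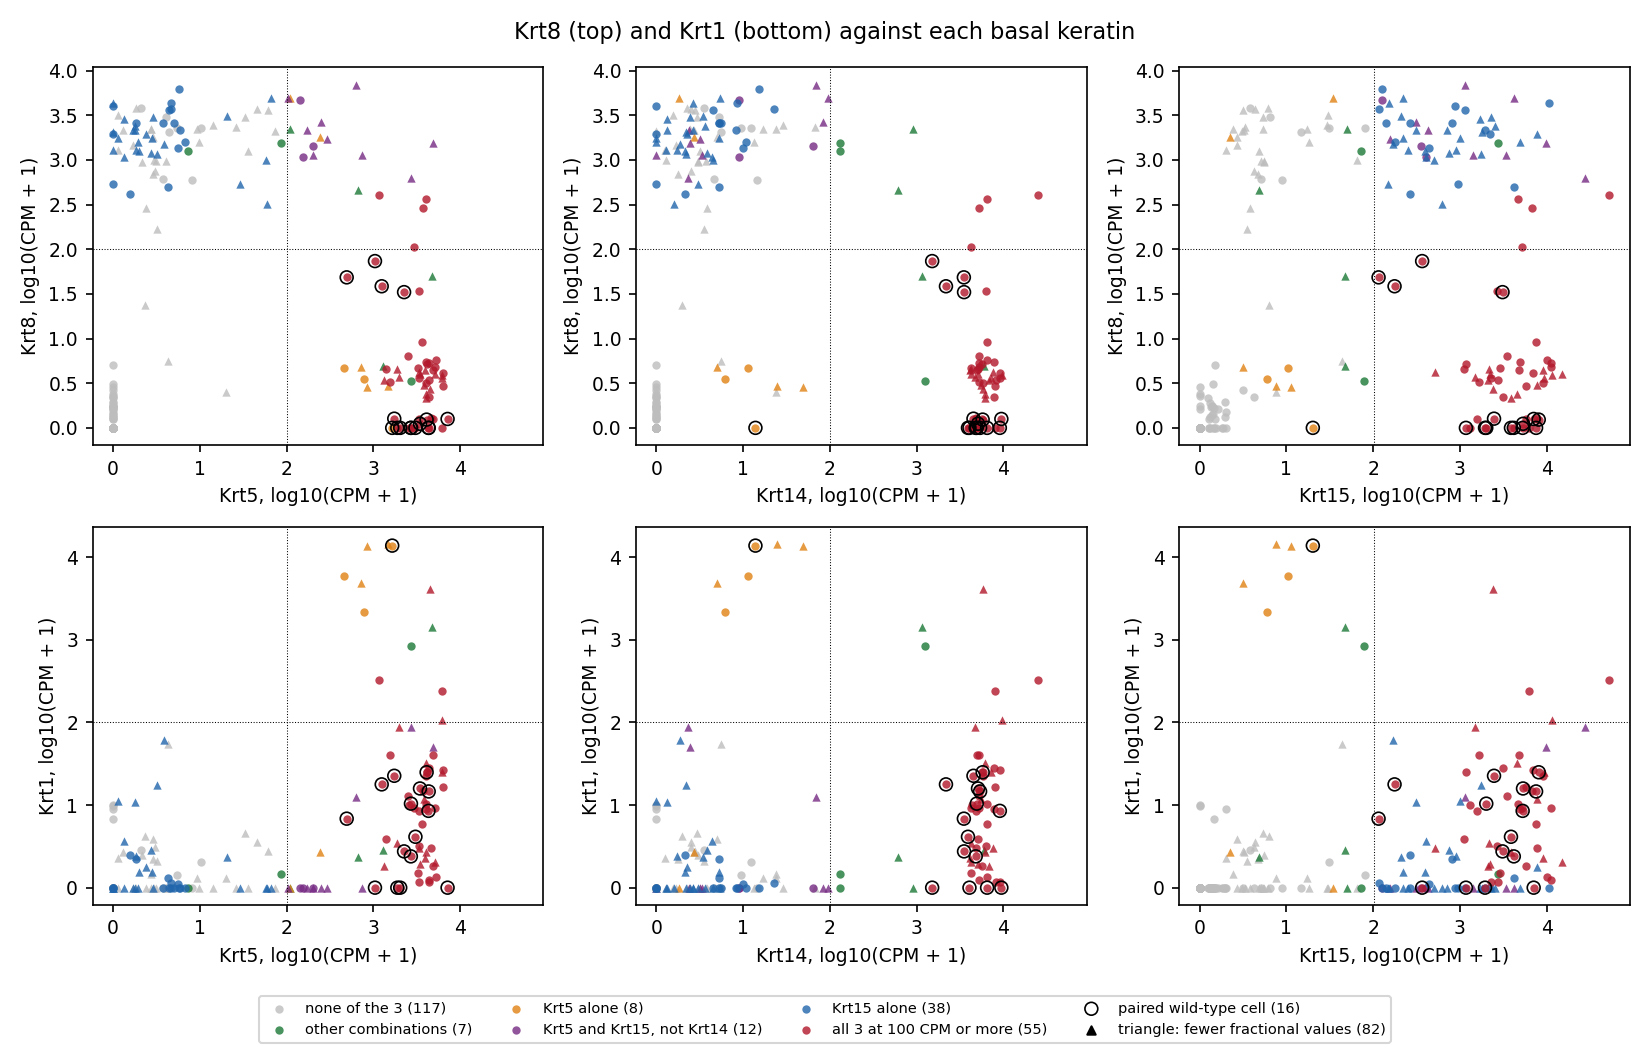
Krt8 (top row) and Krt1 (bottom row) against Krt5, Krt14 and Krt15, each as log10(CPM + 1), in every library, with symbols for the combination present, the set by fractional values and the paired cells, and dotted lines at 100 CPM. Krt8 is present in 55 of the libraries with Krt15 and in 8 of those with Krt14, and all 12 libraries with Krt1 lie to the right of the line for Krt5. Krt5 and Krt8 were the screening targets.

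As a description over the 82 and 155 libraries together, the rank correlation (Spearman) was 0.94 for Krt5 and Krt14, 0.84 for Krt5 and Krt15 and 0.82 for Krt14 and Krt15. The points share depth, the split into these 2 sets and a block of libraries with none of the genes. The CPM of the members correlated with the library total at 0.45, 0.50 and 0.38. Within the 55 libraries with all 3 present, a range set by the members themselves, the correlations were 0.53, 0.66 and 0.36. Within the 155 libraries with more fractional values they were 0.99, 0.89 and 0.88, and within the 82 with fewer they were 0.67, 0.34 and 0.21. The sign of the relation to Krt8 depended on which libraries were taken. In the 120 libraries with at least 1 member present, also a range set by the members, Krt8 correlated at -0.74 with Krt5, -0.70 with Krt14 and -0.36 with Krt15. In the 55 with all 3 it correlated at -0.19, -0.09 and 0.03. The values over all libraries include the 85 with none of the 3 and no Krt8. Krt5 and Krt8 correlated at 0.36 over all, at 0.49 in the 155 and at -0.48 in the 82. In the same order, Krt14 and Krt8 correlated at 0.36, 0.50 and -0.44, and Krt15 and Krt8 at 0.49, 0.62 and -0.22. On the log2(CPM + 1) scale, Pearson's r of Krt5 and Krt8 over all libraries was -0.03. Krt1 correlated with Krt5 at 0.67 over all, 0.76 in the 155 and 0.39 in the 82.

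The genes most like each member were ranked by Spearman correlation over all libraries, among 14107 genes with at least 10 CPM in at least 10 libraries. For Krt5 these were Krt14 (0.94), Perp (0.88), Trim29 (0.85), Krt15 (0.84) and Lama3 (0.82). Perp encodes a desmosomal membrane protein, and Lama3 a laminin chain, a component of the epidermal basement membrane. For Krt14 they were Krt5 (0.94), Trim29 (0.86), Lama3 (0.85), Col17a1 (0.84) and Perp (0.84). For Krt15 they were Perp (0.85), Krt5 (0.84), Krt14 (0.82), Kremen2 (0.79) and Trp63 (0.79). Krt8 ranked 1264 for Krt5, 1117 for Krt14 and 482 for Krt15. Within the 82 libraries with fewer fractional values, 2, 1 and 0 of the 5 genes stayed among the 5 most like Krt5, Krt14 and Krt15, and within the 155 with more, 2, 2 and 3 did.

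Where Krt5 and Krt14 were both present, Krt14 was mostly the higher of the pair per kb of exon. In these 60 libraries, which leave out the 20 with Krt5 at 100 CPM or more and Krt14 below it, Krt5 was lower per kb in 58, and the median log2 ratio of Krt5 to Krt14 was -0.89, with quartiles of -1.39 and -0.68. That median was -0.90 and -0.89 in the sets with fewer and more fractional values. It was -0.86 when the counts of Gm44323 were added to Krt5. Krt15 was more variable against Krt14. In 56 libraries with both, the median log2 ratio per kb was -0.48, the quartiles were -1.60 and 0.33 and the extremes -4.94 and 4.39, and Krt15 was the higher in 19. Against Krt5, Krt15 was the higher per kb in 50 of 67 libraries, at a median log2 ratio of 0.61.

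The keratin list gave the other partners. The table held 28 type I and 26 type II keratin genes, of which 9 of each type were present in at least 1 library. In 150 libraries both types summed to at least 100 CPM per kb, and the median log2 ratio of summed type II to summed type I was -1.0, with quartiles of -1.90 and -0.26. Krt5 was the highest type II keratin per kb in 59 of these libraries. The highest type I keratin beside it was Krt14 in 36, Krt15 in 18 and Krt17, a keratin of periderm and stressed epidermis, in 5. Krt8 led type II in 82, with Krt18 as the highest type I keratin in 63, Krt15 in 16 and Krt19 in 3. All 6 libraries led by Krt1 had Krt10 as the highest type I keratin. So Krt14 led type I only where Krt5 led type II, while Krt15 led in 36 libraries, of which 18 were led by Krt5, 16 by Krt8 and 1 each by Krt4 and Krt6a.

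In the 55 libraries with all 3 present, Krt5 made up a median of 99.4% of type II keratin per kb. Krt14 made up 22.3% to 91.5% of type I with a median of 56.6%, and Krt15 2.54% to 77.5% with a median of 39.4%. In the 38 libraries with Krt15 alone, Krt15 made up 3.07% to 94.9% of type I with a median of 30.3%, and it was above Krt18 per kb in 13 of 38.

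**Figure D3:**
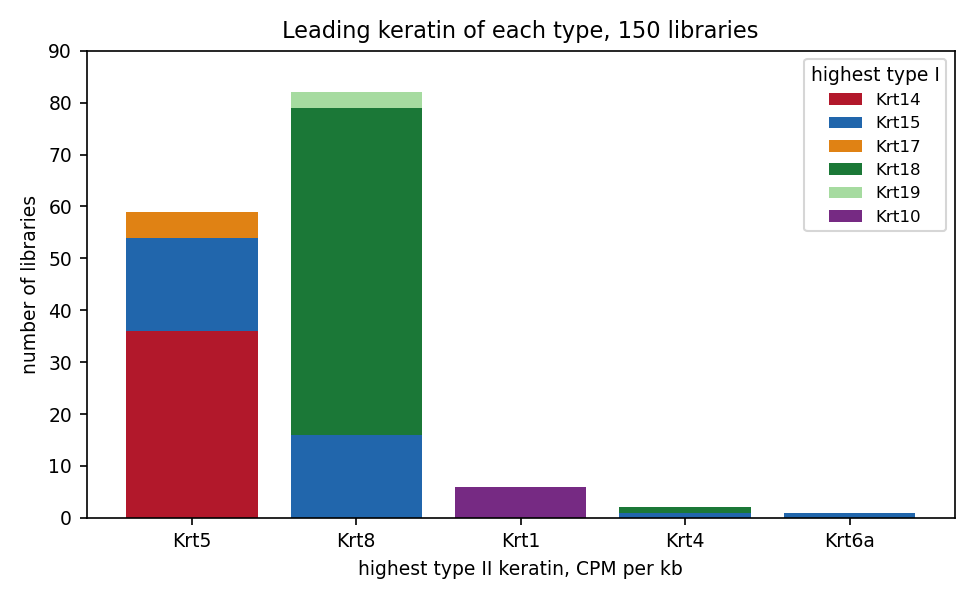
Number of libraries, of the 150 with both keratin types at 100 CPM per kb or more, by the highest type II keratin (horizontal axis) and the highest type I keratin (colours), both ranked by CPM per kb. Krt14 appears only in the Krt5 bar, and Krt15 appears in the bars of Krt5 (18), Krt8 (16), Krt4 (1) and Krt6a (1).

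The paired cells give the levels by label in 1 embryo, so classes were compared without a test and replicates are cells of that embryo. Their totals ran from 6346212 to 9002806 counts. In the 11 WT-KCB cells, Krt5 had a lowest value of 491, a median of 3049 and a highest of 7155 CPM. Krt14 ran from 3498 over a median of 5094 to 9463 CPM, and Krt15 from 114 over a median of 4177 to 8099 CPM. All 3 were present in each of the 11, and Krt8 and Krt1 in none. WT-KCB cell 2 stood apart. It had the lowest Krt5, Krt14 and Krt15 of the class, and the next lowest were 1737, 3902 and 1945 CPM. It also had 613 CPM of Krt17, 123 of Krt18 and 47.4 of Krt8, the highest of the class for each, and 306 CPM of Trp63. Krt17 in the 4 WT-KCP cells was 1715, 3901, 3154 and 2819 CPM.

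The WT-KCP cells had all 3 basal keratins. Krt5 was 2255, 1245, 1885 and 1041 CPM in cells 1 to 4, Krt14 was 3515, 2175, 4059 and 1507 CPM, and Krt15 was 3097, 175, 1171 and 366 CPM. The values of each gene overlapped those of WT-KCB, although Krt14 in cells 2 and 4 was below all 11 WT-KCB cells. Much of the overlap came from WT-KCB cell 2. Below the lowest of the other 10 WT-KCB cells lay 2 of 4 WT-KCP cells for Krt5, 3 of 4 for Krt14 and 3 of 4 for Krt15. Summed over cells, Krt5 was 1634 CPM (exact 95% Poisson interval 1620 to 1649) against 3289 (3277 to 3301) in WT-KCB, Krt14 was 2924 (2905 to 2944) against 5734 (5718 to 5750), and Krt15 was 1209 (1197 to 1222) against 4406 (4392 to 4419). These intervals cover the counting error of reads only and leave out the spread between cells. The libraries carry no molecular identifiers and PCR copies are counted too, so the intervals do not cover the error in molecules. On the log2(CPM + 1) scale the differences were -1.01 for Krt5, -0.97 for Krt14 and -1.86 for Krt15. With all cells included no member was 4-fold lower, a size reached by 6.80% of the 10605 genes with at least 10 CPM in either class, while 5.56% were 4-fold higher. The Krt15 difference was larger without WT-KCP cell 1, the highest of its class, at -2.80, which is past the 4-fold line, and it was -2.0 without WT-KCB cell 2.

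Within the WT-KCB and WT-KCP cells, only the order of Krt5 and Krt14 was constant. Per kb, Krt5 was below Krt14 in 11 of 11 WT-KCB and 4 of 4 WT-KCP cells, with log2 ratios of -3.15 to -0.63 and -1.43 to -0.86. Krt15 against Krt14 ran from -4.94 to 0.48 in WT-KCB and was -0.19, -3.64, -1.80 and -2.05 in WT-KCP. Krt14 was the highest member per kb in 8 WT-KCB cells and Krt15 in 3, so the order of these 2 genes was not fixed among basal cells. In WT-KCP Krt14 was the highest in 4 of 4. Krt15 was above Krt5 per kb in 9 of 11 WT-KCB cells and in 1 of 4 WT-KCP cells.

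In the WT-KCI cell Krt5 was present without the others. It had 1645 CPM of Krt5 (1618 to 1673), 12.9 of Krt14 (10.5 to 15.5) and 19.2 of Krt15 (16.3 to 22.4), beside 13862 CPM of Krt1 and 15379 of Krt10. Its Krt5 lay below the range of 10 of the 11 WT-KCB cells and above that of cell 2, and its Krt14 and Krt15 lay below all 11. Against the summed WT-KCB cells, the log2 differences were -1.0 for Krt5, -8.69 for Krt14 and -7.77 for Krt15. With 1 cell on one side, 29.5% of the 10425 genes compared were 4-fold lower and 9.13% 4-fold higher. Of these genes, 0.0192% were as low as Krt14 or lower by this difference, 0.173% as low as Krt15 and 38.8% as low as Krt5. The fold is that of 1 cell, and no other WT-KCI cell was paired. By the study's methods wild-type cDNA was chosen for Krt5, so the presence of Krt5 here was partly set by that choice.

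**Figure D4:**
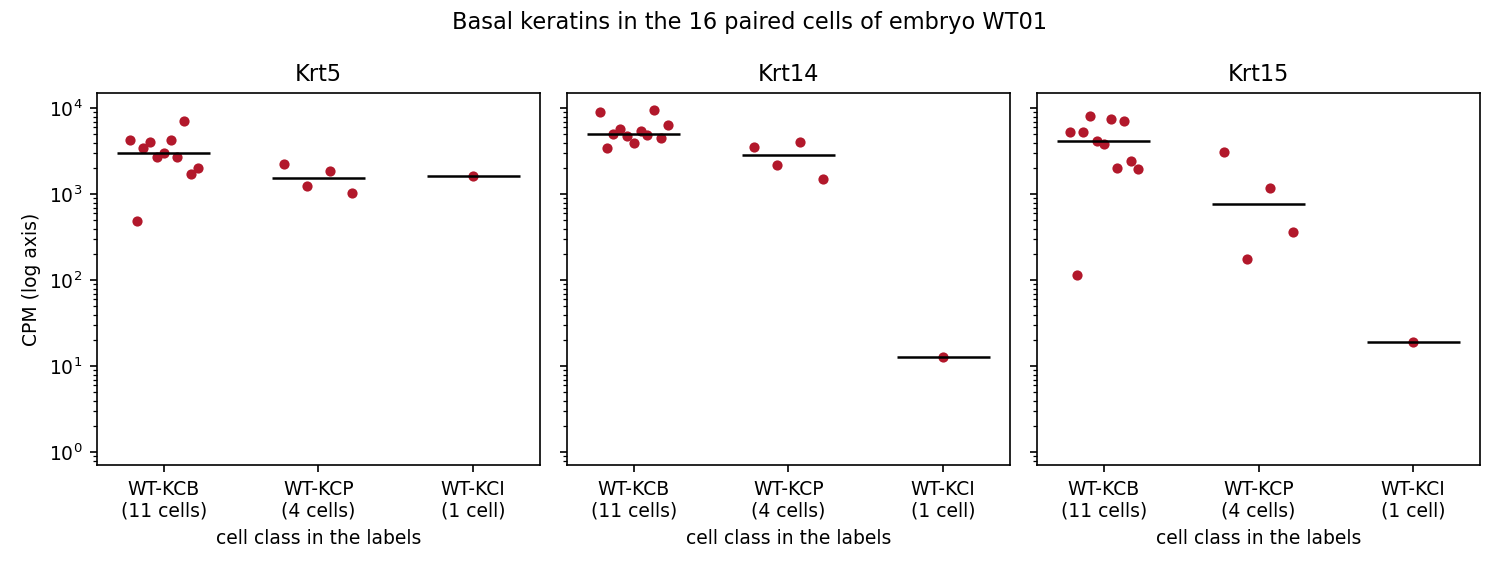
CPM on a log axis of Krt5, Krt14 and Krt15 in each of the 16 paired cells (points) by labelled class, with black lines for class medians. The WT-KCP points overlap the WT-KCB points in each panel. For Krt14 and Krt15 only 1 of 4 WT-KCP cells does so once WT-KCB cell 2, the lowest of its class, is set aside. The WT-KCI cell is apart for Krt14 (12.9 CPM) and Krt15 (19.2 CPM). Its Krt5 (1645 CPM) lies among the WT-KCP points but below every WT-KCB point other than cell 2.

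Among the 51 other keratins, 6 reached 10 CPM in WT-KCP or WT-KCB. Of these, 2 were 4-fold higher in WT-KCP, Krt17 (2923 against 96.1 CPM) and Krt8 (32.3 against 4.33 CPM). High Krt17 is what the label of WT-KCP names, so its difference was set by the labelling. Of the 6, 1 was 4-fold lower, Krt7 (6.09 against 71.2 CPM), a simple epithelial type II keratin. The median log2 difference was 0.04 over the 6 genes. In the WT-KCI cell, 10 qualified, of which 6 were 4-fold higher and 3 lower, with a median log2 difference of 3.11 against -0.38 over all genes compared. Krt77, a suprabasal type II keratin, was at 2054 against 1.12 CPM, and Krt2, Krt4 and Krt19 were the other higher genes beside Krt1 and Krt10. Krt7, Krt16 and Krt18 were the lower ones, and each had no count in that cell, against 71.2, 21.4 and 15.3 CPM in WT-KCB.

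The list of genes that attach basal keratin filaments or regulate basal identity held 20 genes, and all 20 qualified in both comparisons. In WT-KCP 3 were 4-fold higher and 0 lower, beside 5.56% and 6.80% of all genes compared, with a median log2 difference of 0.16. Among the higher ones were Grhl3, a transcription factor of barrier formation (79.2 against 6.56 CPM), and Ovol1, a transcription factor of epidermal differentiation (12.3 against 0.0455 CPM). In the WT-KCI cell 5 were higher and 9 lower of the 20, beside 9.13% and 29.5% of all genes compared, with a median of -1.03 against -0.38 over all genes. Among the lower ones were Col17a1 (0.970 against 387 CPM), Itga6 (0 against 123), Itgb4 (0.728 against 162), Dst (3.64 against 265), the laminin genes Lama3 (7.76 against 158) and Lamb3 (0 against 99.7), Jag2, a Notch ligand gene, and Fgfr2, a growth factor receptor gene (43.1 against 609). The higher ones were Grhl3 (967 against 6.56), Klf5 (827 against 57.9), Perp (6471 against 1292), Tfap2c (166 against 24.1) and Ovol1 (31.4 against 0.0455 CPM). Trp63 stayed within 4-fold in both classes, at 737 CPM in WT-KCP and 273 in the WT-KCI cell against 443 in WT-KCB. Thus Krt5, for which wild-type cDNA was screened, and Trp63 were within 4-fold of WT-KCB in the cell with high Krt1. Krt14, Krt15, Col17a1, Itga6, Itgb4, Dst, Lama3 and Lamb3 were more than 4-fold lower there. Plec, the listed gene for another hemidesmosomal protein, was not.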

How the data were processed

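Per the labels and the study's methods, Trimmomatic trimmed the reads, HISAT2 placed them on mm10, and featureCounts assigned them to genes of Ensembl 97. The strand and multi-mapping settings are not given in the sources used here. The values the authors deposited are estimated counts, not normalized and often fractional. They were rounded to whole numbers, and CPM is the count over the library total. Lengths are merged exons of GENCODE M21 on GRCm38, an annotation 1 release older than that of the counts. Of the 55335 genes, 55154 had a symbol. All 37 mitochondrial genes had 0 counts. Groups came from the labels of the 16 paired cells, whose runs the study's supplementary data ties to cells. Cells were summed per class, with a pseudocount of 1 CPM and a 4-fold line. The members, lists and rules were chosen with earlier results of these data known. Named genes were the 3 members, Krt8, Krt18, Krt1, Krt10 and Krt17, list genes past 4-fold and the 5 genes most like each member. Others, such as Gm44323 and Dcn, were named after their values were seen. The code was tested on simulated data. Alternatives covered the CPM line, scaling, fractional counts, totals, lengths, pseudocount and single cells. The 2 sets by share of fractional values were added after seeing the data. Python 3.11.15, numpy 2.4.6, pandas 2.3.3, scipy 1.17.1, Biopython and matplotlib were used. Some results are not reported here.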

Additional observations from a re-analysis of the deposited data

How the results depend on the processing

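Of 191 recomputed values, 133 kept their direction and moved by less than 1.5 times (counts) or 0.1 (correlations and log2 values). At 10 CPM, 17 libraries had all 3 basal keratins and Krt8, and 33 had Krt1 and Krt5. At 1000 CPM, Krt15 alone was found in 17 libraries, 16 of them with Krt8, Krt5 without Krt14 in 4, Krt1 with Krt5 in 4, and all 3 with Krt8 in 0. With size factors over the libraries, 8 had all 3 and Krt8. Every library passed the minimum total, so that setting changed nothing. Pearson's r on log2(CPM + 1) with Krt8 was -0.03 for Krt5, -0.10 for Krt14 and 0.31 for Krt15, and with Krt1 0.55, 0.41 and 0.30. In the libraries with all 3 present, the rank correlations among the members were 0.53, 0.66 and 0.36. In the libraries with fewer fractional values they were 0.67, 0.34 and 0.21, Krt8 stood at -0.48 with Krt5 and -0.22 with Krt15, Krt1 at 0.39 with Krt5, and the median log2 ratio of Krt15 to Krt14 was -0.64. In those with more, Krt8 stood at 0.49 with Krt5 and 0.62 with Krt15. Size factors over the 16 cells gave -0.75, -8.47 and -7.52 for Krt5, Krt14 and Krt15 in WT-KCI against WT-KCB. Leaving out 1 cell at a time gave -1.19 to -0.83, -1.24 to -0.79 and -2.80 to -1.52 in WT-KCP, and -1.11 to -0.82, -8.75 to -8.60 and -7.90 to -7.64 in WT-KCI. The cause of these shifts was not tested. No paired analysis was possible because no result comes from a test. Cells of 1 embryo, screened cDNA and the unexplained split by fractional values limit what these values can show.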
